A study of Mus musculus with 23 samples.

Results

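The 82 genes described here encode the nuclear subunits of the mitochondrial oxidative phosphorylation system in mouse. They were the protein-coding genes of the count table whose symbols begin with Nduf followed by a, b, c, s or v and a number, with Uqcr, with Cox4 to Cox8 followed by a, b or c, or with Atp5, and Sdha to Sdhd. The pattern matched 92 of 50123 genes, and 10 pseudogenes among them were left out. Of the 82 members, 35 belong to complex I, 4 to complex II, 8 to complex III, 18 to complex IV and 17 to complex V, and 76 passed the filter on low counts.

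RNA was measured by Smart-seq2, a full-length cDNA protocol without molecular identifiers, in 23 libraries of 100 thymic epithelial cells (TECs) each, sorted from fetal thymus of C57BL/6 mice. In the loss-of-function experiment, embryos came from a cross of Foxn1Cre;RbpjFL/+ with RbpjFL/FL mice. Foxn1Cre is active in TECs, and RBP-J is the DNA-binding factor through which canonical Notch signalling acts. Conditional knockouts (cKO, Foxn1Cre RbpjFL/FL) and littermate controls, which the labels call wild type although every embryo of this cross inherits at least 1 floxed allele, gave 3 libraries each from PLET1+ TECs at E12.5, from PLET1+ TECs at E14.5 and from PLET1- TECs at E14.5. PLET1 marks the early progenitor state and is lost by most TECs as they differentiate. In the gain-of-function experiment, 5 libraries of PLET1+ TECs at E14.5 came from 5 embryos of 1 litter that carried Foxn1Cre and the Rosa26FL-STOP-FL-NICD-IRES-EGFP allele, which expresses the Notch intracellular domain (NICD) after recombination. The NICD cells were bred and sorted in another laboratory and form a batch of their own, so laboratory, litter and transgene cannot be told apart. Libraries of the Rbpj cross came from 2 litters per stage, and stage and batch cannot be told apart either. Because nothing states that each of these libraries came from a separate embryo, p-values measure the spread between libraries.

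Oxidative phosphorylation passes electrons from NADH (through complex I) or succinate (through complex II) to ubiquinone, on through complex III and cytochrome c to complex IV, and to oxygen. Complexes I, III and IV pump protons across the inner membrane, and complex V, the ATP synthase, lets them flow back through its membrane rotor to drive catalysis in its F1 head. Most subunits are made from nuclear genes and imported, but the proton-pumping cores of complexes I, III and IV and part of the rotor housing are encoded by mitochondrial DNA, so that the 2 genomes must supply matching parts.

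Total counts ranged from 20053241 to 92699969 per library, with 16229 to 20350 genes detected, and the members took 2.53 to 4.12% of the counts. The 9 TEC markers summed to between 2933 and 12918 CPM (counts scaled to library size with TMM factors) and none was at 0 in all libraries of a group. Blood cell markers summed to at most 58.8 CPM, while the 4 parathyroid markers summed to between 742 and 9091 CPM in the E12.5 libraries, to between 0.273 and 10.1 CPM in NICD libraries and to at most 1559 CPM in the E14.5 Rbpj cross. Mesenchymal markers were highest in E14.5 PLET1- control replicate 2, at 1161 CPM. Their part in the results was not tested. Rbpj itself ranged from 9.5 to 37.9 CPM in the control libraries and from 0.061 to 16.2 CPM in the cKO libraries. In libraries of sorted cells, fewer cells of one kind and less RNA per cell cannot be told apart.

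One set of libraries stood apart before any group was compared. The 4 libraries numbered replicate 1 in the E14.5 Rbpj cross, 1 in each of its groups, had 16229 to 17220 genes detected, against 18059 to 20350 in the 8 libraries numbered 2 and 3. They carried 539 to 854 CPM of Hprt, a housekeeping gene, against 252 to 338 CPM, and 12.6 to 97.5 CPM of Foxn1, the master regulator of TEC differentiation, against 121 to 295 CPM. The 13 subunits encoded by mitochondrial DNA summed to between 74762 and 115499 CPM in replicate 1 and to between 30831 and 40518 CPM in replicates 2 and 3. The labels put replicates 1 and 2 in the same batch, so the batch terms of the fit do not separate them. At E12.5, replicate 3 was a batch of its own and had the highest summed member level in both groups. This split of the libraries was recognised from the values, so it is given as a description without a test. Counts of members called and the main medians are given with and without these libraries, and counts of members whose groups do not overlap are given only with them.

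A larger share of the members than of all genes was divided between these libraries. The split was recognised partly in these same members, and all genes were not matched to them for level or transcript length. The shares are therefore a description and no support for the split. In replicate 1, 58 of 76 members (76.3%) lay wholly above the 8 libraries of replicates 2 and 3, against 7.4% of all 19140 genes tested, and 6 members (7.89%) lay wholly below, against 7.82% of all genes. The median log2 difference was 0.82 for the members and -0.12 for all genes. The 6 lower members were the complex I core subunit Ndufs1, the complex II genes Sdha and Sdhc, and Atp5a1, Atp5b and Atp5d of the F1 head. Their share is near that of all genes, so nothing is read from their roles. Other members of the same sets lay wholly above: 3 of the 6 tested core subunits of complex I, 2 of the 4 complex II genes and 2 of the 5 F1 head subunits. The split of complex I and of the ATP synthase by role, here and below, was made after the values were seen. It is a description and no independent support. Among the 28 tested accessory subunits of complex I, which surround and stabilise its catalytic core, 26 lay wholly above, with a median difference of 0.97. All 4 subunits of the ATP synthase peripheral stalk, which holds the F1 head still while the rotor turns, were also higher. By transcript length, 46 of the 52 members under 1000 bases were wholly higher, and 12 of the 24 longer ones.

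**Figure D1:**
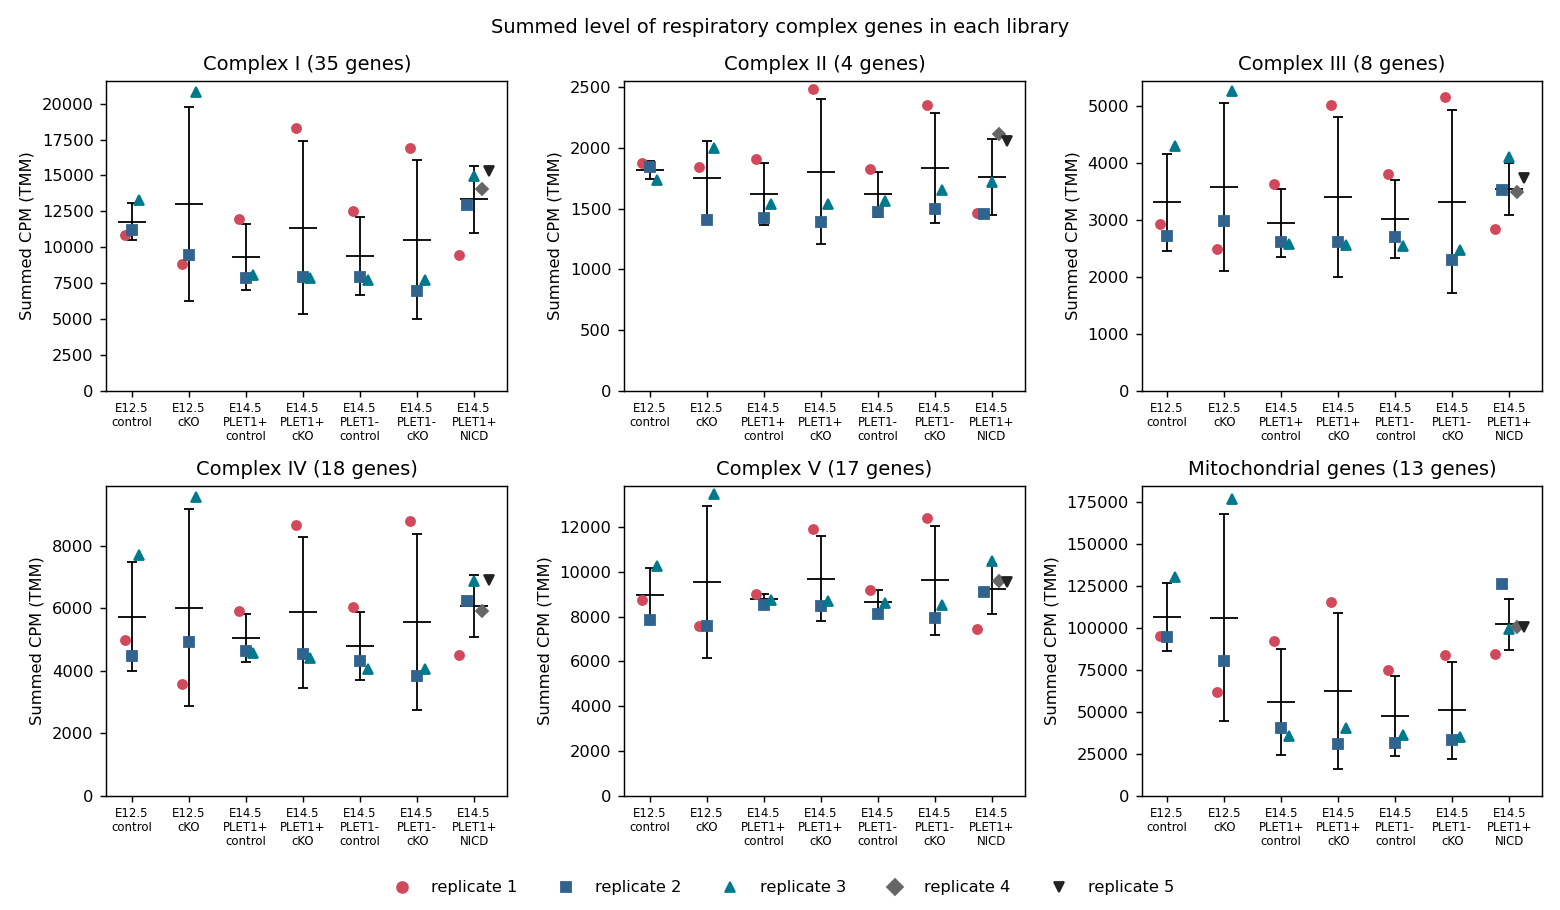
Summed CPM (linear axes from 0) of the members of each respiratory complex and of the 13 mitochondrially encoded subunits, with 1 symbol per library by replicate number, a bar at each group mean and error bars of 1 SD. For complex I, replicate 1 of the 4 groups of the E14.5 Rbpj cross lies between 11946 and 18326 CPM, above replicates 2 and 3 at 6969 to 8074 CPM, and NICD libraries lie between 9471 and 15291 CPM.

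Complex I showed the division most plainly when its 35 members were summed. E14.5 PLET1+ control libraries held 11946, 7876 and 8074 CPM in replicates 1, 2 and 3, and the PLET1+ cKO libraries held 18326, 7902 and 7882 CPM. PLET1- controls held 12517, 7908 and 7708 CPM and PLET1- cKO libraries 16911, 6969 and 7712 CPM. NICD libraries held 9471 to 15291 CPM with a median of 14024 CPM, and E12.5 libraries 10882, 11214 and 13276 CPM in controls and 8795, 9474 and 20796 CPM in cKO. Replicates 2 and 3 were therefore the lowest libraries of the series for this complex, and replicate 1 overlapped with E12.5 and with NICD. Complex V differed less, from 7942 to 8744 CPM in replicates 2 and 3 and from 9040 to 12433 CPM in replicate 1. Complex II, the smallest, ranged from 1385 to 1655 CPM and from 1825 to 2486 CPM.

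Per kilobase of transcript, the most abundant members averaged over the 23 libraries were small accessory subunits. Ndufa11, which helps hold the membrane arm of complex I together, averaged 1665 CPM per kilobase, Uqcr11 of complex III 1614, Cox6b1 of complex IV 1590, and Atp5j of the ATP synthase stalk 1497 CPM per kilobase. The iron-sulphur subunit Sdhb was the highest of complex II at 797 CPM per kilobase, with the flavoprotein subunit Sdha at 80.3. Catalytic and core subunits lay lower in this order: Ndufs1 and Ndufv1, which carry electron centres of complex I, averaged 64.3 and 68.4 CPM per kilobase, and Atp5a1 and Atp5b of the F1 head 341 and 678. Ndufs7, which holds the last iron-sulphur cluster of complex I, averaged 266 CPM per kilobase, the membrane anchor Sdhd 347, and Cox5a and Cox5b, nuclear subunits of complex IV, 370 and 772. The spread over libraries was wide for each of them, from 782 to 3458 CPM per kilobase for Ndufa11, so that neighbours in this order overlapped.

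**Figure D2:**
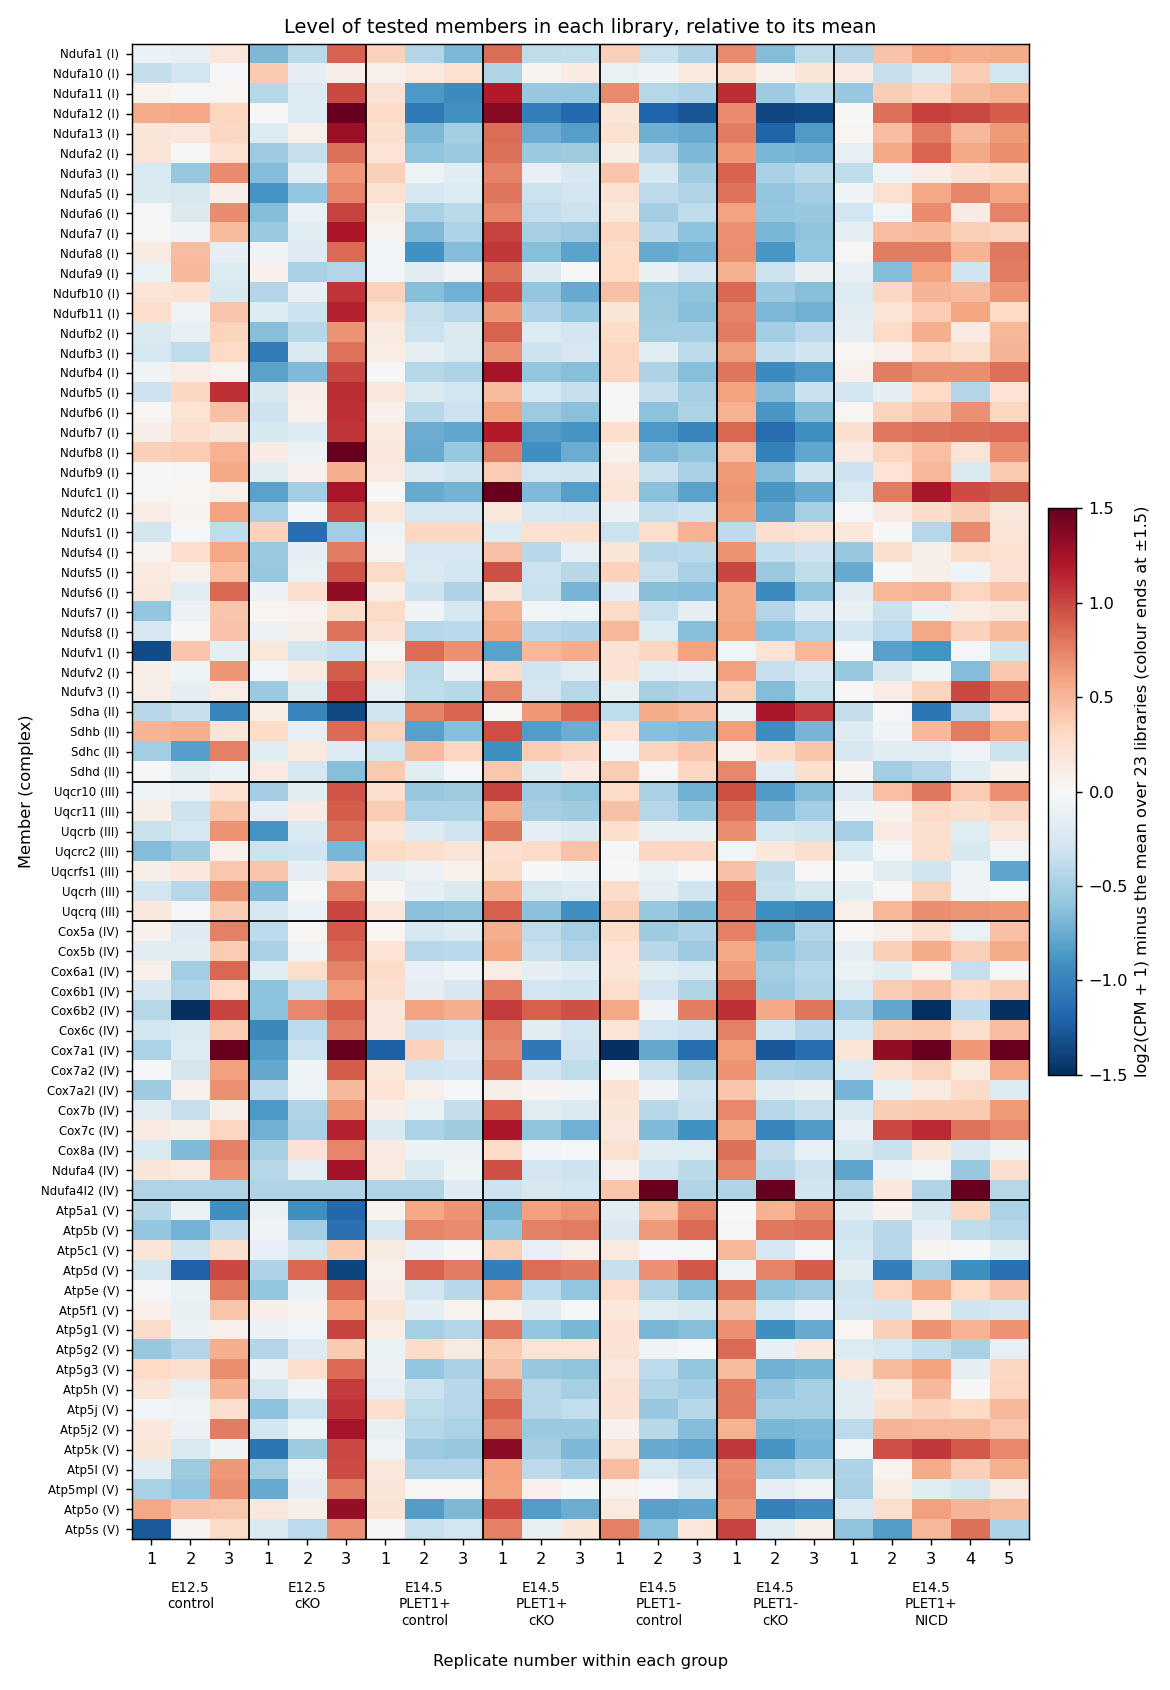
Log2(CPM + 1) of the tested members (1 not drawn) minus its mean over the 23 libraries, red above and blue below the mean, with members in rows ordered by complex and libraries in columns ordered by group. Most rows are high in replicate 1 of the E14.5 Rbpj cross, in E12.5 cKO replicate 3 and in most NICD libraries, and low in replicates 2 and 3, whereas the rows of Atp5a1, Atp5b and Sdha show the opposite order.

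The 2 core genes Ndufs3 and Uqcrc1 were listed near 0, with 34 and 69 counts summed over all libraries. Each has a second row in the annotation with the same exon length, 2178 and 4135 bases, on an alternative scaffold of the build, and that row holds 0 counts. Fragments that align to more than 1 place were not counted, so these values cannot be read as expression of these subunits. The 4 other members that failed the filter were Cox6a2, Cox7b2, Cox8b and Cox8c, isoforms known from muscle or testis. Cox6a2 was measured at 7.57 CPM in E12.5 control replicate 3 and at 0.511 CPM or less in every other library. Part of the exons of Atp5o (44.0%), Ndufb6 (39.0%) and Ndufa13 (30.0%) overlaps another gene, and fragments on such overlaps were not counted.

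Complex IV uses tissue-restricted versions of several subunits, and TECs carried the ubiquitous ones. Averaged over the libraries, Cox6a1 was at 937 CPM per kilobase and Cox6a2, the heart and muscle form, at 0.52. Cox7a2 was at 736 CPM per kilobase and Cox7a1, its muscle partner, at 9.29. Cox8a was at 1192 CPM per kilobase, with Cox8b at 0.0129 and Cox8c at 0.00683. Cox6b1 was at 1590 CPM per kilobase and Cox6b2, known from testis, at 24.4. Cox7b was at 572 CPM per kilobase and Cox7b2 at 0.0411, and Cox7a2l, a supercomplex factor, was at 185. Ndufa4, now placed in complex IV, was at 1306 CPM per kilobase, and its hypoxia-related paralog Ndufa4l2 at 0.882. Among the 3 genes of the c ring, the rotor of the ATP synthase, Atp5g3 was at 472 CPM per kilobase, Atp5g1 at 203 and Atp5g2 at 90.3. The order of the first 2 depends on the length used, a median over transcripts of 718.5 bases for Atp5g3 and 2675.5 for Atp5g1. Without division by length, Atp5g1 was higher, with a mean of 543 CPM against 339 for Atp5g3 and 52.9 for Atp5g2. These 3 encode the same mature protein with different import sequences.

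**Figure D3:**
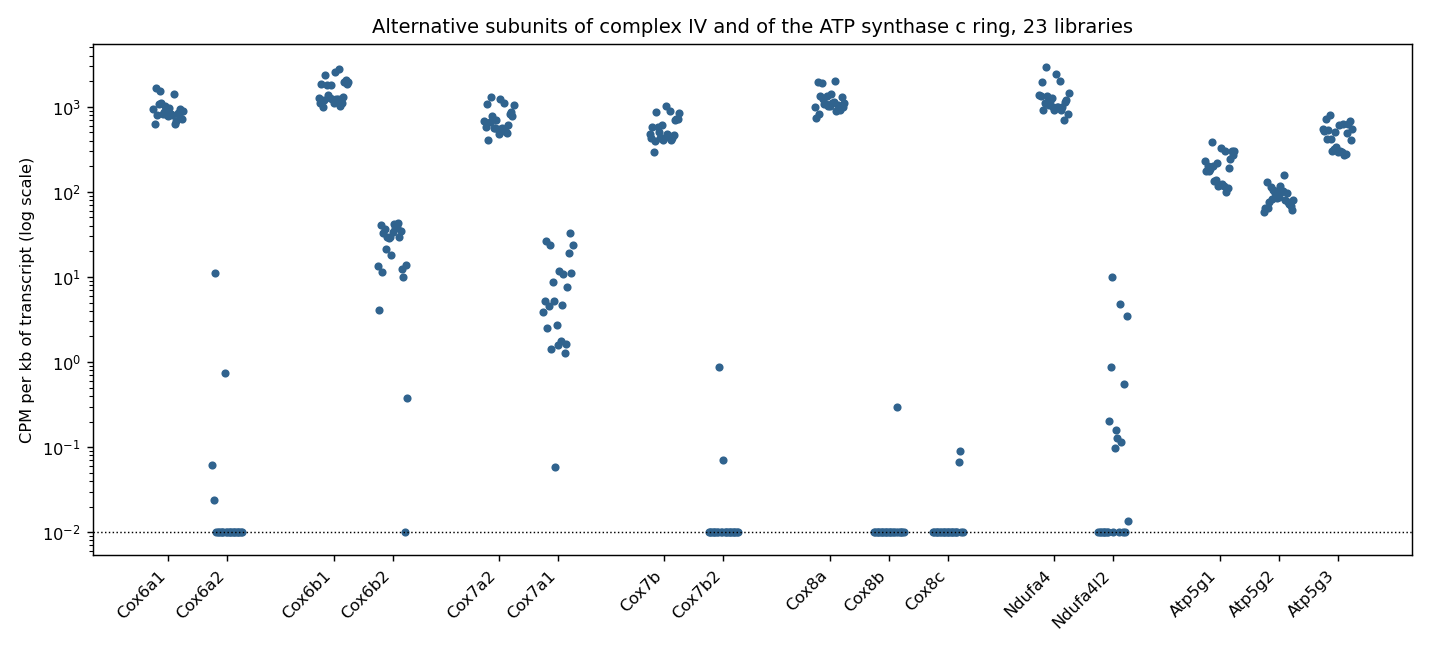
Level in CPM per kilobase (log axis) of ubiquitous and tissue-restricted isoforms of complex IV and of the 3 c ring genes, 1 point per library, with values under 0.01 drawn at the dotted line. The ubiquitous forms lie apart from the restricted ones, such as Cox7a2 at 736 and Cox7a1 at 9.29 CPM per kilobase on average.

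Levels of some restricted isoforms are given by group, all of them low. Cox6b2 was measured at 9.38, 13 and 12.4 CPM in E14.5 PLET1+ controls, at 18.1, 16.2 and 16.9 CPM in PLET1+ cKO libraries, and at 0 to 6.04 CPM in NICD libraries. These 3 groups did not overlap, although neither difference passed the test across all genes. Against PLET1+ controls, 3.07% of all genes lay wholly higher in PLET1+ cKO libraries and 6.52% wholly lower in NICD libraries. Nothing is therefore read from this separation. Cox7a1 ranged from 3.32 to 14.6 CPM in NICD libraries and from 0.618 to 3.78 CPM in PLET1+ controls, which overlap. Ndufa4l2 was at 0 in all 6 E12.5 libraries and at 9.27 and 4.44 CPM in replicate 2 of the PLET1- control and cKO groups, with 0.817 CPM or less in the other PLET1- libraries.

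Promoter sequences were read from RefSeq on GRCm38.p6 as 250 bases before and 50 after the transcription start, for 66 of the 82 members. Short matches to 4 regulators known from genes of mitochondrial respiration were counted on both strands. The NRF1 core GCATGCGC was found in 10 member promoters (15.2%), against 3.05% of 27025 genes, and the YY1 core AAGATGGC in 9 (13.6%), against 3.19%. The ERR core TCAAGGTC was found in 3 (4.55%, against 1.18%) and the ETS/GABP core CCGGAAGT in 5 (7.58%, against 4.31%). At least 1 of the 4 was in 26 members (39.4%) and in 11% of all genes. Of the 9 YY1 matches 7 were in complex I, which holds 31 of the 66 promoters read, and nothing is read from these small counts. A match of letters is a description, not a site. The sequences that follow belong to members described later, with 4 complex I accessory subunits first and last Atp5b, whose replicate 1 libraries lie on the opposite side from theirs. Matches are in capitals. In Ndufa11 the NRF1 core and its reverse complement overlap in 1 palindromic run, and Atp5b holds none of the 4 cores. The windows shown do not stand for the members as a whole. Ndufa12, Ndufb7, Uqcr10 and Atp5o, which lay wholly higher in replicate 1, also hold none of the 4 cores. Whether a match goes with the side of replicate 1 was not tested.
Ndufa8, chr2:36049289-36049588, minus strand, NRF1 core: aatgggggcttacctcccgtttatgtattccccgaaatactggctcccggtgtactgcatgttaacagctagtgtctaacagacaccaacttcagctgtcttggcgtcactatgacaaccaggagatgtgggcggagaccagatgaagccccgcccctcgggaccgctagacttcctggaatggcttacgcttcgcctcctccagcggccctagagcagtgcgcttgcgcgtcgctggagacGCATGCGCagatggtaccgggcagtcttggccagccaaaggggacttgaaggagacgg
Ndufb8, chr19:44555393-44555692, minus strand, YY1 core: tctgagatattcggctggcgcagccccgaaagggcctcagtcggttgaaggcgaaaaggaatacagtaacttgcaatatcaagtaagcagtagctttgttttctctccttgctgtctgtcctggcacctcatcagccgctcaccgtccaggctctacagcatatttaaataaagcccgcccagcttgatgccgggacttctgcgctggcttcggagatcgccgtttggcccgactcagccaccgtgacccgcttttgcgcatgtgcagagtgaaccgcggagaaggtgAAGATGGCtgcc
Ndufc1, chr3:51408906-51409205, minus strand, YY1 core: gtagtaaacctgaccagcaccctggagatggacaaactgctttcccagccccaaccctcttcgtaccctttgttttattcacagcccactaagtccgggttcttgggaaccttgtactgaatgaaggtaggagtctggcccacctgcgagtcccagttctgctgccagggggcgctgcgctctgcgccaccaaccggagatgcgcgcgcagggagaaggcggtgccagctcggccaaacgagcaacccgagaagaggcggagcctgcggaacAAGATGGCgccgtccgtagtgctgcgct
Ndufa11, chr17:56717512-56717811, plus strand, NRF1 core on both strands: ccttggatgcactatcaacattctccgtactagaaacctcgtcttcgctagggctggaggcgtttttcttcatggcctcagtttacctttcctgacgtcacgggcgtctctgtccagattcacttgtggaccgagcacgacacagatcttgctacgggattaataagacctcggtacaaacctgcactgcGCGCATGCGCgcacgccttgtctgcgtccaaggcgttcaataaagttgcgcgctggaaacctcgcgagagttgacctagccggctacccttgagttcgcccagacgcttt
Atp5b, chr10:128083057-128083356, plus strand, no match: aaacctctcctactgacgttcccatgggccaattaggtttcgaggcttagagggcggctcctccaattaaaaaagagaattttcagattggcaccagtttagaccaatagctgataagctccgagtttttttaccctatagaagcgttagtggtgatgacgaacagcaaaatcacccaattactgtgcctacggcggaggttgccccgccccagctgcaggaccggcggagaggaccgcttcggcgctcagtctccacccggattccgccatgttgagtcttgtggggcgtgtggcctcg

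The first question of the design is what loss of RBP-J does to these genes. At E12.5 no member changed between cKO and control PLET1+ TECs by edgeR at an adjusted p of at most 0.05, against 0.0261% of all genes. None had an unadjusted p under 0.05, and DESeq2 and limma-voom called none. The median log2 fold change was 0.01 for members and 0.00 for all genes, and no member's libraries were separated between groups, against 2.96% of genes higher and 3.01% lower. The members nearest to a difference were Ndufa10 (log2 fold change 0.36, SE 0.22, or -0.08 after scaling to housekeeping genes) and Cox8a (0.21, SE 0.27, or -0.17 after that scaling and -0.10 without cKO replicate 2) on one side. On the other side were Ndufa9 (-0.35, SE 0.36) and Ndufs4 (-0.27, SE 0.31). Ndufa10, an accessory subunit of the membrane arm, was measured at 190, 199 and 237 CPM in controls and at 318, 221 and 261 CPM in cKO libraries, which overlap. With replicate 3 of E12.5 and replicate 1 of the E14.5 Rbpj cross left out, chosen after seeing the data, the 28 accessory subunits of complex I had a median of -0.35, with 25 below 0, and again 0 members were called.

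In E14.5 PLET1+ TECs, again no member changed on loss of RBP-J by edgeR, against 0% of all genes, with 0 members under an unadjusted p of 0.05 and 0 called by DESeq2 or limma-voom. The edgeR fit did not pair libraries by replicate number. The difference between replicate 1 and the other library of its batch in each group therefore stayed in the spread tested against. The same holds below for cKO in PLET1- TECs and for PLET1+ against PLET1- controls. Of the 76 members, 1 (Cox6b2) lay wholly above controls and 0 lay wholly below, against 3.07% and 4.57% of all genes. The median log2 fold change was 0.18, with -0.02 over all genes, but it rested on replicate 1. Within replicate numbers the median log2 ratio was 0.53 for replicate 1, -0.02 for replicate 2 and -0.06 for replicate 3, and without replicate 1 the fitted median was -0.01. Ndufc1, a subunit of the membrane arm whose promoter is shown above, illustrates this: controls were at 307, 182 and 189 CPM and cKO libraries at 871, 194 and 173 CPM. Its fitted log2 fold change was 0.73 (SE 0.53), and -0.17 without cKO replicate 1. Ndufa11 had 0.66 (SE 0.47) and Ndufa10 had -0.23 (SE 0.22).

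E14.5 PLET1- TECs gave the same picture. No member changed by edgeR, against 0% of all genes, 0 had an unadjusted p under 0.05, and DESeq2 and limma-voom called 0. The libraries of 0 members were separated in either direction, against 2.62% of genes higher and 3.2% lower. The median log2 fold change of 0.16 over members (0.02 over all genes) came with within-number medians of 0.45, -0.19 and 0.01, and became -0.10 without replicate 1. Sdha was measured at 159, 305 and 293 CPM in controls and at 193, 486 and 429 CPM in cKO libraries (log2 fold change 0.55, SE 0.40). The groups overlap. In each of the 3 replicate numbers the cKO library was above the control, although the fit with the replicate block called no member. Sdha was named for its small p, and how many other genes keep such an order is not given, so nothing is read from it. Cox7a1 had 1.52 (SE 1.21), from libraries of at most 4.80 CPM, and -0.60 without replicate 1. Uqcrc2, which shapes the matrix side of complex III, had -0.09 (SE 0.21, or 0.05 after scaling to housekeeping genes) and Ndufs1 -0.14 (SE 0.34, or 0.02 after that scaling and 0.02 without cKO replicate 1). The test of a difference between the PLET1+ and PLET1- effects called 0 members, against 0% of all genes, and that of a difference between the E14.5 and E12.5 effects in PLET1+ TECs also called 0, against 0%. In both, 0 members had an unadjusted p under 0.05 and the other tools called none.

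PLET1+ and PLET1- controls at E14.5 were compared next, since PLET1 is lost with differentiation. No member differed by edgeR, against 0% of all genes, 0 had an unadjusted p under 0.05, DESeq2 and limma-voom called 0, and 0 were separated, against 5.03% of genes higher and 4.66% lower. Over members the median log2 fold change was 0.04, over all genes 0.02, and within replicate numbers -0.04, 0.08 and 0.12, with 0.07 in the fit without replicate 1. Ndufs6, needed late in complex I assembly, had 0.25 (SE 0.31), and Ndufa11 had -0.48 (SE 0.47) from 963, 453 and 426 CPM in PLET1+ and 1348, 614 and 599 CPM in PLET1- libraries. In this gene each PLET1+ library was below the PLET1- library of its number, while the groups overlapped. How many other genes keep such an order is not given, so nothing is read from it. Cox7a1 had 1.78 (SE 1.20) at levels of at most 3.78 CPM, and Ndufa4l2 was at 0 in 2 of 3 PLET1+ controls.

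Between E12.5 and E14.5, accessory subunits of complex I in PLET1+ control TECs had fitted values mostly below 0 and the catalytic sets had mixed signs, with none past the test. By edgeR 0 members changed, against 0.967% of all genes, with 6 under an unadjusted p of 0.05 and 0 called by limma-voom. DESeq2 called 1291 genes in all and 2 members, among them Uqcrc2 (log2 fold change 0.61, adjusted p = 0.0483). The median log2 fold change was -0.24 over the members, 53 of 76 being below 0, while that of all genes was 0.19. Of the members, 6 lay wholly higher at E14.5, against 11.5% of all genes, and 9 wholly lower, against 8.82%. By the split by role, made after the values were seen, the accessory subunits of complex I had a median of -0.41, with 24 of 28 below 0. Its 6 tested core subunits had a median of 0.25, with 4 above and 2 below 0. In the ATP synthase, the F1 head had a median of 0.60, with 3 above and 2 below 0, and the peripheral stalk of -0.37, with 4 of 4 below 0. Without replicate 1 of the Rbpj cross these medians were -0.62, 0.22, 0.80 and -0.54. Transcript length moved with these values, the median being -0.35 for the 52 members under 1000 bases and 0.00 for the 24 longer ones (-0.52 and -0.10 without replicate 1), and its part was not tested. Parathyroid markers also moved with the stage, from 1400, 1568 and 9091 CPM in E12.5 controls to 2.11, 400 and 3.47 CPM in E14.5 PLET1+ controls, with none of the 4 at 0 in all E12.5 controls, and their part was not tested.

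The shares of members wholly higher or wholly lower are near those of all genes, so the members are named to show their levels and nothing is read from their roles. Those wholly higher at E14.5 included Atp5a1, Atp5b, Sdha, Uqcrc2 and Ndufa10. Atp5a1, the alpha subunit of the F1 head, was measured at 611, 763 and 431 CPM and then at 844, 1217 and 1301 CPM (0.92, SE 0.31, edgeR adjusted p = 0.22). Atp5b (ENSMUSG00000025393.12, chr10:128083273-128090391), the beta subunit that makes ATP, was at 797, 729 and 910 CPM and then at 1002, 1977 and 1953 CPM (0.99, SE 0.34, edgeR adjusted p = 0.237). Here replicate 1 lay close to E12.5 and replicates 2 and 3 far above it. Sdha, the succinate-oxidising subunit, was at 155, 163 and 105 CPM and then at 168, 348 and 379 CPM, with the same order. Uqcrc2 was at 202, 219 and 336 CPM and then at 392, 379 and 363 CPM (0.60, SE 0.21, edgeR adjusted p = 0.245).

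The 9 members that were wholly lower were Ndufa12, Ndufb8, Ndufc1, Uqcrfs1, Cox7c, Atp5g3, Atp5h, Atp5j2 and Atp5o. Ndufa12 (ENSMUSG00000020022.16, chr10:94198955-94221443), added late to complex I, was at 808, 821 and 683 CPM at E12.5 and at 670, 262 and 292 CPM at E14.5 (-1.02, SE 0.61, edgeR adjusted p = 0.485). Ndufb8 (ENSMUSG00000025204.10, chr19:44548572-44555440), a membrane arm subunit whose promoter holds a YY1 core, was at 762, 776 and 855 CPM and then at 666, 354 and 402 CPM (-0.79, SE 0.42, edgeR adjusted p = 0.425). Atp5o (ENSMUSG00000022956.10), which joins the stalk to the F1 head, was at 1482, 1333 and 1305 CPM and then at 1148, 553 and 617 CPM. In all 3, replicate 1 was the E14.5 library nearest to E12.5. Atp5g3 of the c ring was at 394, 378 and 522 CPM and then at 301, 215 and 228 CPM (-0.78, SE 0.31, edgeR adjusted p = 0.314). Its 3 libraries at E14.5 all lay below E12.5.

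**Figure D4:**
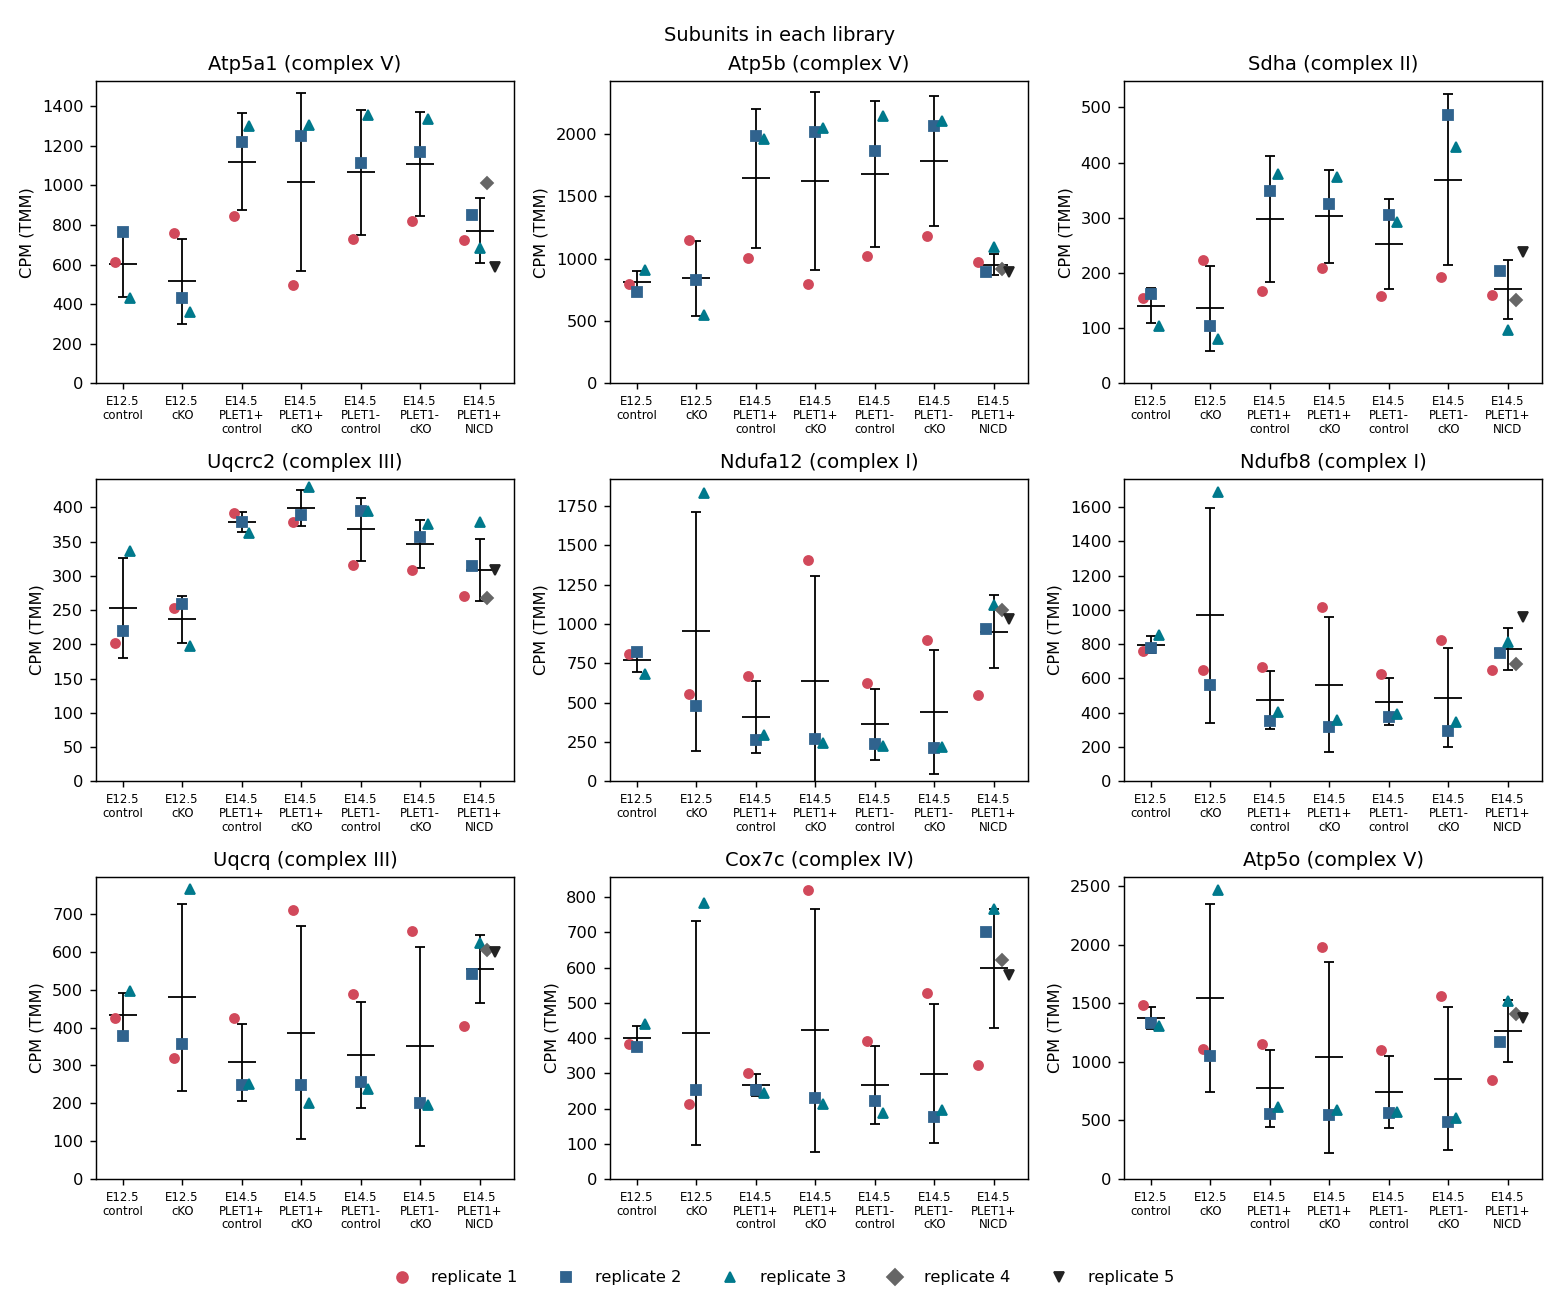
CPM of Atp5a1, Atp5b, Sdha, Uqcrc2, Ndufa12, Ndufb8, Uqcrq, Cox7c and Atp5o (linear axes from 0), with 1 symbol per library by replicate number, a bar at each group mean and error bars of 1 SD. In the E14.5 Rbpj cross, Atp5b and Sdha are low in replicate 1 (Atp5b 799 to 1180 CPM) and high in replicates 2 and 3 (Atp5b 1862 to 2140 CPM), as is Atp5a1, and the 5 panels from Ndufa12 to Atp5o run the other way.

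With replicate 1 of the E14.5 Rbpj cross left out, an alternative chosen after its libraries were seen to stand apart in these same genes and so no independent support, the same comparison called 3 members by edgeR, against 1.37% of all genes. These were Atp5b (log2 fold change 1.25, SE 0.21) and Atp5a1 (1.09, SE 0.24), higher at E14.5, and Atp5o (-1.28, SE 0.28), lower. The member median was then -0.45, with 62 of 76 below 0, and 29 members had an unadjusted p under 0.05. When E12.5 replicate 3 was left out too, 7 members were called, against 1.9% of all genes: Atp5b, Sdhc and Uqcrc2 on the higher side, and Ndufa12, Ndufb8, Sdhb and Atp5o on the lower. Sdhb and Sdhc, which carry the iron-sulphur clusters of complex II and anchor it in the membrane, had log2 fold changes of -1.22 (SE 0.28) and 1.10 (SE 0.21) in that fit. The list of calls therefore depends on which libraries stand for each stage.

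The gain-of-function comparison asks what sustained Notch activity does in E14.5 PLET1+ TECs. By edgeR 0 members differed between NICD and control, against 0.684% of all genes, with 16 under an unadjusted p of 0.05 by edgeR, 19 by DESeq2 and 29 by limma-voom, and 0 called by either. Scaling to housekeeping genes called 10 members and testing without the filter on low counts called 7, by edgeR. The median log2 fold change was 0.37 over members and 0.04 over all genes, with 51 of 76 above 0. The sum of the 8 mesenchymal markers moved with this comparison, from 24.4, 10.4 and 2.37 CPM in controls to 297, 170, 23.2, 426 and 293 CPM in NICD libraries. Pdgfrb was at 0 in all controls, while Twist1 went the other way, with means of 0.763 CPM in controls and 0.0606 CPM in NICD. The part of these markers was not tested. Of the members, 6 (7.9%: Ndufa8, Ndufb4, Ndufb7, Ndufv3, Cox7c and Atp5k) lay wholly above controls, against 5.22% of all genes. Another 5 (6.6%), among them Ndufv1, Cox6b2, Atp5d and Atp5g2, lay wholly below, against 6.52%. These shares are near those of all genes, so the members are named here and below to show their levels, and nothing is read from their roles or promoters. By the same split by role, made after the values were seen, the accessory subunits of complex I had a median of 0.56, with 25 of 28 above 0. The 6 tested core subunits had a median of -0.07, with 1 above and 5 below 0, which became 0.29 after scaling to housekeeping genes. The F1 head had a median of -0.53, with 1 above and 4 below 0, and the c ring of 0.67, with 2 above and 1 below. Without replicate 1 of the Rbpj cross these 4 medians were 0.75, -0.03, -0.70 and 0.84. By transcript length the median was 0.48 under 1000 bases and -0.17 in longer members (0.67 and -0.11 without replicate 1), and the part of length was not tested. These comparisons and the one between stages share the same 3 E14.5 control libraries, so their opposite signs are not separate evidence.

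Cox7c, a small subunit of complex IV, was at 301, 254 and 243 CPM in controls and from 324 to 767 CPM in NICD libraries, with a median of 621 CPM (log2 fold change 1.15, SE 0.43, edgeR adjusted p = 0.211). The groups did not overlap. Ndufc1 (ENSMUSG00000037152.11, chr3:51404677-51408988) was at 307, 182 and 189 CPM in controls and at 264, 532, 720, 608 and 591 CPM in NICD libraries (1.26, SE 0.49, edgeR adjusted p = 0.223). NICD replicate 1 was the low one, below control replicate 1. Ndufa8 (ENSMUSG00000026895.7, chr2:36036326-36049406), an intermembrane space subunit of complex I with an NRF1 core in its promoter, was at 339, 185 and 221 CPM in controls and at 353, 592, 592, 496 and 604 CPM in NICD libraries (1.08, SE 0.42, edgeR adjusted p = 0.227). On the other side, Atp5b was at 1002, 1977 and 1953 CPM in controls and at 888 to 1089 CPM in NICD libraries, with a median of 917 CPM (-0.78, SE 0.30, edgeR adjusted p = 0.216). All NICD libraries were close to control replicate 1. Ndufv1, the NADH-binding subunit, was at 99.2, 176 and 158 CPM in controls and at 52 to 96.5 CPM in NICD libraries (-0.93, SE 0.36, edgeR adjusted p = 0.218).

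Without replicate 1 of the Rbpj cross the comparison with NICD called 5 members by edgeR, against 0.939% of all genes, and the member median was 0.55. The libraries left out were chosen because they stood apart in these same genes, so the calls are a description of this choice and no independent support. On the higher side were Ndufa12 (log2 fold change 1.78, SE 0.38), Ndufb7 (1.49, SE 0.27), Ndufa8 (1.38, SE 0.30) and Uqcrq (1.15, SE 0.22), and on the lower side Atp5b (-1.05, SE 0.19). Uqcrq, a small subunit of complex III, was at 426, 248 and 251 CPM in controls and at 404 to 623 CPM in NICD libraries, so that replicate 1 of the controls again lay with NICD. In this fit 47 members had an unadjusted p under 0.05. When E12.5 replicate 3, which is in neither group but helps set the spread, was left out as well, 23 members were called, 21 higher and 2 (Atp5b and Atp5d) lower, against 2.88% of all genes.

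**Figure D5:**
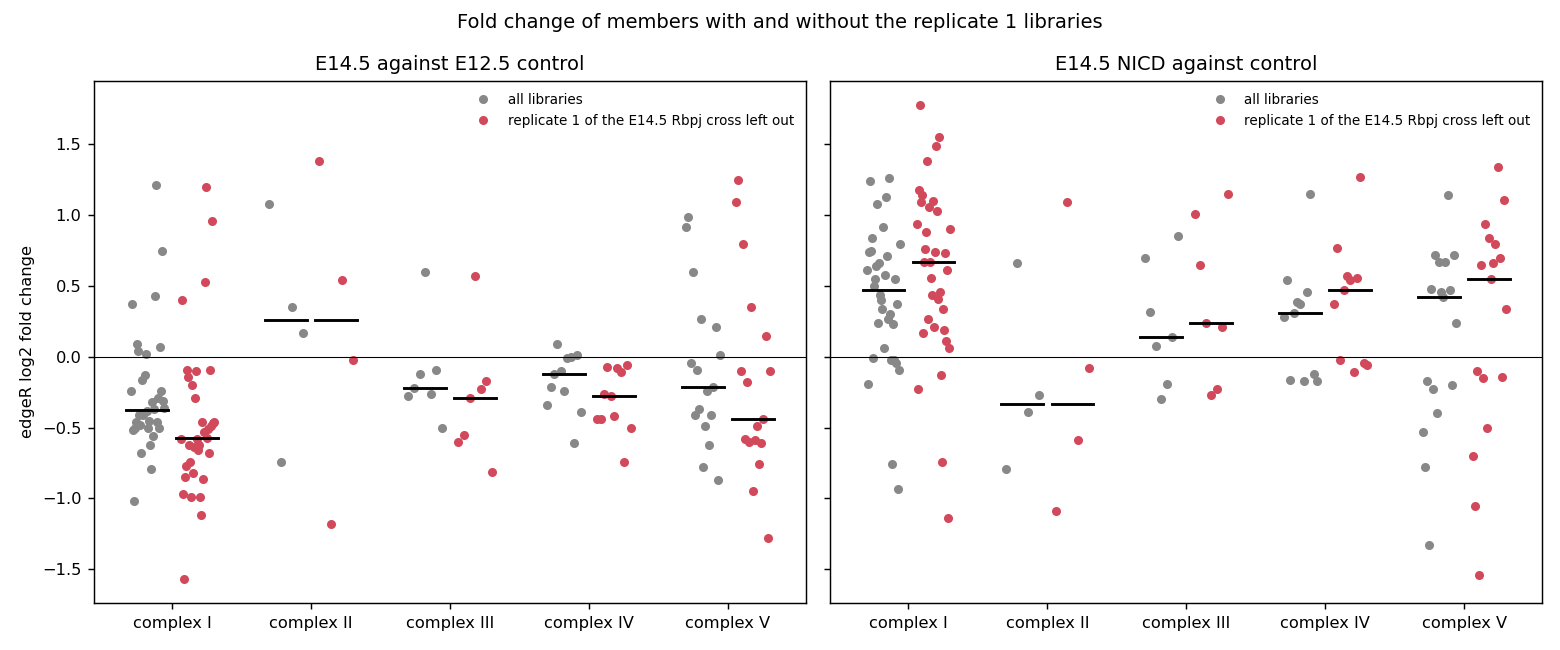
Log2 fold change by edgeR of each tested member by complex, for E14.5 against E12.5 controls and for NICD against E14.5 controls, with all libraries (grey) and with replicate 1 of the E14.5 Rbpj cross left out (red), a bar at the median, and without the low Ndufa4l2, Cox7a1 and Cox6b2. The complex I median goes from -0.38 to -0.57 between stages and from 0.47 to 0.67 for NICD when replicate 1 is left out.

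NICD TECs at E14.5 were also set beside E12.5 control PLET1+ TECs, which differ in parathyroid markers as given above, at most 10.1 CPM in NICD libraries, a difference whose part was not tested. By edgeR 0 members differed, against 2.81% of all genes, 2 had an unadjusted p under 0.05 (3 by DESeq2 and 5 by limma-voom), and neither other tool called any. Members had a median log2 fold change of 0.13 and all genes of 0.17. The libraries of 0 members lay wholly higher, against 5.63% of genes, and those of 1 wholly lower, against 4.91%. That 1 was Uqcrfs1, the Rieske iron-sulphur protein of complex III, at 320, 337 and 401 CPM at E12.5 and at 174 to 304 CPM in NICD libraries (-0.46, SE 0.21, edgeR adjusted p = 0.269). Ndufa5 had 0.54 (SE 0.33), and Atp5f1 -0.32 (SE 0.17). Ndufa4l2 was at 0 in all E12.5 controls and at 0 to 3.22 CPM in NICD libraries. The accessory and core subunits of complex I had medians of 0.20 and 0.08 and the F1 head of 0.07, closer to each other than in either of the 2 comparisons with E14.5 controls.

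As a description, the log2 levels of the 76 members were compared between pairs of libraries by Pearson's r across genes, which are not independent replicates. Replicates 2 and 3 of the E14.5 Rbpj cross had a median r of 0.989 among themselves (28 pairs) and of 0.869 with NICD libraries (40 pairs). Replicate 1 had a median r of 0.923 with replicates 2 and 3 (32 pairs), of 0.947 with NICD (20 pairs), of 0.966 with E12.5 replicates 1 and 2 (16 pairs) and of 0.945 with E12.5 replicate 3 (8 pairs). Over the 19064 other genes the order was different: replicate 1 had 0.914 with replicates 2 and 3, 0.862 with NICD, 0.889 with E12.5 replicates 1 and 2 and 0.863 with E12.5 replicate 3. Over the members the highest of these 4 medians for replicate 1 was with E12.5 replicates 1 and 2, and over the other genes it was with replicates 2 and 3 of its own stage.

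The partner subunits from the mitochondrial genome followed the same libraries. The ratio of their summed CPM to that of the nuclear members was 3.36 ± 0.133 (SD, n = 3) in E12.5 controls, 3.01 ± 0.454 (SD, n = 3) in E12.5 cKO and 3.04 ± 0.496 (SD, n = 5) in NICD. In the E14.5 Rbpj cross it was 1.94 ± 0.781 in PLET1+ controls, 1.78 ± 0.643 in PLET1+ cKO, 1.67 ± 0.502 in PLET1- controls and 1.58 ± 0.225 in PLET1- cKO (SD, n = 3 each). It was 1.84 to 2.83 in the 4 replicate 1 libraries of this cross and 1.24 to 1.61 in the other 8. By edgeR 1 of the 13 mitochondrial genes fell from E12.5 to E14.5, mt-Nd5 (log2 fold change -1.28, SE 0.27, adjusted p = 0.0266), with a list median of -0.95. Without replicate 1 of the Rbpj cross 4 were called lower and the median was -1.21. Against E14.5 controls 1 of 13 was lower in NICD, mt-Nd3, at 0.133 ± 0.054 CPM (SD, n = 5) against 45.4 ± 8.03 CPM (SD, n = 3), and the list median was 0.06, or -0.17 without TMM. The same gene was lower in NICD than in E12.5 controls (35.6 ± 40.2 CPM, SD, n = 3), where the list median was -0.74. The cause of the near-0 values of this gene in all NICD libraries was not tested, and they are not read as its expression.

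Other genes around the respiratory chain were counted from lists, by edgeR, first between stages and then in NICD against E14.5 controls, which share the 3 E14.5 control libraries. Of 18 glycolysis genes, 0 passed the test in either comparison, with a median log2 fold change of 0.82 between stages and of -0.84 in NICD. Without replicate 1 of the Rbpj cross, 5 of them were called higher at E14.5 (list median 1.14) and 5 lower in NICD (list median -1.08), with the limit given above for that choice of libraries. For the tricarboxylic acid cycle and pyruvate dehydrogenase, 0 of 18 passed, with medians of 0.30 and of -0.29, the second becoming 0.05 after scaling to housekeeping genes. The medians of 44 assembly factors were -0.21 and 0.27. One of them, Sco1, which delivers copper to complex IV, was lower in NICD (-3.0, SE 0.58, edgeR adjusted p = 0.0235), at 2.59 ± 1.78 CPM (SD, n = 5) against 21.7 ± 10.4 CPM (SD, n = 3). Sdhaf1, an assembly factor of complex II, was higher in NICD than in E12.5 controls (1.77, SE 0.44, edgeR adjusted p = 0.0374). Among the 13 regulators of mitochondrial biogenesis 0 passed, with medians of 0.12 and 0.12, the second becoming -0.06 without TMM. The 76 genes of the mitochondrial ribosome had medians of -0.23 and 0.33, with 0 passing. For the 77 of the cytosolic ribosome, with 0 passing, they were -0.17, which became 0.01 without TMM, and 0.30. Scaling to housekeeping genes gave 7 and 9 calls in these ribosome lists, all higher in NICD. Of 7 subunits outside the name pattern 0 passed, with medians of -0.43 and 0.68. Cyc1, the cytochrome subunit of complex III, was at 205 ± 70.9 CPM (SD, n = 3) at E12.5, 309 ± 21.8 CPM (SD, n = 3) at E14.5 and 161 ± 23.4 CPM (SD, n = 5) in NICD, an order that Uqcrc2 shared between stages. In the 3 cKO comparisons and between PLET1+ and PLET1- controls, 0 genes of these lists passed. Between PLET1+ and PLET1- controls, 77 of 77 cytosolic ribosome genes were above 0, with a median of 0.27, and 32 of them (41.6%) lay wholly higher in PLET1+, against 5.03% of all genes. In NICD against E14.5 controls 69 of the 77 were above 0. There 27 (35.1%) lay wholly higher, against 5.22% of all genes, and 2 (2.6%) wholly lower, against 6.52%. Genes of a list are not independent replicates.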

How the data were processed

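The deposited table holds raw fragment counts per gene, not normalized. Per the labels and the file header, the authors trimmed 75 bp paired reads with Trimmomatic 0.32, aligned them with STAR 2.5.1a to GRCm38.p5 (mm10) and counted fragments with both ends aligned with featureCounts (1.5.1 per the labels, 1.5.0-p3 per the header), without strand and without fragments on several places or genes. Counting without strand and the loss of shared fragments can lower overlapping or duplicated genes, and Smart-seq2 without molecular identifiers counts amplified copies, so depth sets counting error only.

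Symbols, biotypes and transcript lengths were taken from the reference annotation. Counts were scaled with TMM to CPM, filtered with filterByExpr by group and fitted over all 23 libraries with edgeR 4.0.16 (quasi-likelihood, R 4.3.3), with 7 group means and batch terms within E12.5 and within the E14.5 Rbpj cross. Tests were two-sided, and p-values were adjusted by Benjamini-Hochberg over 19140 genes, a gene being called at an adjusted p of at most 0.05. The log2 fold changes and SEs come from this fit. DESeq2 1.42.0 and limma-voom (limma 3.58.1), which the study used, were alternatives, as were other scalings, filters, batch settings and sets of libraries. Correlations used log2(CPM + 1). The scripts were tested on simulated counts. Any 2 libraries differed in at least 81.6% of the tested genes, so each was counted as 1 sample.

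Same-numbered libraries of the E14.5 Rbpj cross deviated together (r of 0.467 to 0.671 between PLET1+ cKO and control, 0.462 to 0.743 between PLET1- cKO and control, and 0.478 to 0.693 between PLET1+ and PLET1- controls, over 4568 genes), so the numbers pair these libraries. The main fit has batch terms and no term for replicate number, so its SEs and p-values for these comparisons do not use the pairing. Differences between numbers within a batch stay in the spread it tests against. Only the fit with the replicate block uses the pairing, and its unadjusted p-values are not given here.

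The members and lists were chosen with earlier results of these data known. The genes named by rule were members called (up to 5 in each direction) or else the 2 members with the smallest p in each direction, the isoform pairs, the core subunits, the highest member of each complex and the members that failed the filter. Members whose groups did not overlap, and those called with libraries left out, were named after their values were seen. The split of complex I and of the ATP synthase by role was also made after the values were seen. Results for 1 member are not reported here.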

Additional observations from a re-analysis of the deposited data

Results flagged for a closer look

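In the 5 NICD libraries, the 44 sets of values behind named results were searched for 1 library far from the others by Dixon's criterion, and 5 were found. Chance alone gives about 1 in 20 such groups. NICD replicate 1 was the low one in 3 of them: Cox6b1 at 638 CPM with the next library at 908 CPM, Ndufa11 at 558 CPM with the next at 1034 CPM, and Ndufs4 at 169 CPM with the next at 266 CPM. The same library had the lowest complex I sum of the group, at 9471 CPM. The other 2 were Atp5f1, at 848 CPM in NICD replicate 3 with the next at 666 CPM, and Ndufa4l2, at 3.22 CPM in NICD replicate 4 with the next at 0.519 CPM.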

How the results depend on the processing

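By edgeR with all libraries, 0 members were called in any comparison. For NICD against E14.5 controls, scaling to housekeeping genes gave 10 calls, and no filter gave 7. For E14.5 against E12.5 controls, DESeq2 gave 2 and no filter gave 1. Settings chosen after seeing the data changed these counts as well: replicates 2 and 3 only in the E14.5 Rbpj cross gave 5 and 3 calls, and leaving out E12.5 replicate 3 too gave 23 and 7. Leaving out 1 library at a time gave 0 calls in both comparisons. The replicate block gave 0 calls in every comparison and changed no call. Its E14.5 terms covered the NICD libraries together with the Rbpj cross, although these came from another laboratory and litter. Same-numbered NICD and PLET1+ control libraries did not deviate together (r of -0.308 to 0.004). The block is therefore no check of the NICD comparisons, and NICD libraries helped set its terms for the Rbpj cross. Among the housekeeping genes used for scaling, Hprt is itself high in replicate 1. Scaling to them moved the median of all genes to 0.38 (NICD against control) and 0.40 (NICD against E12.5) and the member medians to 0.75 and 0.40. The member median between stages was -0.45 with replicates 2 and 3 only. The log2 ratio of summed levels, NICD against control, became 0.90, 0.49, 0.65, 0.64 and 0.46 for complexes I to V under that scaling, and -0.15 for complex V without TMM. Against E12.5 it became 0.42, 0.19 and 0.29 for complexes I, II and V. Between stages it became 0.00 for complex II and 0.15 for complex V without TMM, and -0.33 for complex II with both sets of libraries left out. Reversed under housekeeping scaling were Ndufa10 (-0.08) and Cox8a (-0.17) in E12.5 cKO and Uqcrc2 (0.05) and Ndufs1 (0.02) in PLET1- cKO. Leaving out 1 library at a time, Cox8a ranged from -0.10 to 0.33, Ndufc1 in PLET1+ cKO from -0.17 to 1.09, Cox7a1 in PLET1- cKO from -0.01 to 2.49 and Ndufs1 from -0.34 to 0.02. With replicates 2 and 3 only, Cox7a1 became -0.60, and with E12.5 replicate 3 also out -0.59, while Ndufc1 became -0.01. The causes were not tested. Over all genes, calls for NICD against control were 131 by edgeR, 1236 by DESeq2 and 998 by limma-voom, between stages 185, 1291 and 448, and for NICD against E12.5 538, 2285 and 1500. For cKO at E12.5, in PLET1+ and in PLET1- TECs, PLET1+ against PLET1- controls, and the differences of cKO effects between PLET1+ and PLET1- and between stages, edgeR called 5, 0, 0, 0, 0 and 0 genes, DESeq2 318, 100, 160, 153, 107 and 193, and limma-voom 0, 0, 0, 1, 0 and 0. With 3 libraries in most groups, a p that misses the threshold does not show that levels were alike.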
